A study of Homo sapiens with 12 samples.

Results

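GDF15, growth differentiation factor 15, encodes a secreted cytokine of the TGF-beta family, and its mRNA level was followed over all 12 libraries of the series. It is 1 of the 8579 genes in the deposited count table and was chosen by its own counts in these groups, as known from earlier results of the same data. Its own values by group and by library number are therefore a description, and no test is given for them. A375, an established human melanoma cell line with an activating BRAF mutation, was grown in medium with fetal bovine serum and treated for 72 hours. The groups were UNTREATED (DMSO, the drug solvent), SEL201 at 2.5 µM, OTX015 at 50 nM and COMBO, which received both agents at these doses, with 3 libraries each, numbered 1 to 3. SEL201 blocks MNK1 and MNK2, kinases whose known substrate is the cap-binding protein eIF4E. OTX015 blocks the BET family, which binds acetylated chromatin through bromodomains. Being 1 cell line at 1 time and 1 dose per agent, the design gives no view of other melanoma cells, earlier times or protein levels. Whether the libraries of a group were grown as separate cultures is not stated in the labels, and the p-values therefore reflect library-to-library spread that could be technical.

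GDF15 is made as a precursor that is cut by furin-like proteases and secreted as a dimer. Its receptor GFRAL acts with the kinase RET and is known from hindbrain neurons, where it lowers food intake. In cultured and tumour cells GDF15 is best known as a stress gene. It is induced by ATF4 and CHOP (the product of DDIT3), the transcription factors of the integrated stress response that follows phosphorylation of eIF2. Raised GDF15 in blood has been described in many cancers, melanoma among them.

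The sequence upstream of the gene is shown because the changes described here are in mRNA level and the factors named above act on the promoter. It is the RefSeq reference on GRCh38.p14, plus strand, chr19:18385908-18386157, and ends at the base before the annotated start. The counts were made on another build, hg19. Capitals mark the matches to the Sp1 motif GGGCGG (here CCGCCC on the other strand and GGGCGG) and to the TATA motif TATAAA.

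GDF15 promoter: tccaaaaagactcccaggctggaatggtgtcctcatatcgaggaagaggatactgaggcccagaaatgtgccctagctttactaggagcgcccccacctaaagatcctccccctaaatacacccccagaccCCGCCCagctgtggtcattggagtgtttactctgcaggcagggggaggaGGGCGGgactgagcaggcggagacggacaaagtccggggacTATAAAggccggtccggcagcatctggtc

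Motifs were searched on both strands of a window from 250 bases before to 50 bases after the start. The TATA match begins 29 bases before the start, and 11.5% of the 35116 promoter windows of the RefSeq table hold such a match. The Sp1 matches begin 119 and 70 bases before the start, and 45.0% of windows hold at least 1. No match was found for TGATGNAA, the composite element bound by ATF4 with C/EBP proteins (3.62% of windows), TGACGT, the cyclic AMP element core (7.98%), TGANTCA of AP-1 (7.71%), CACGTG (7.26%), GCGTGGGCG of EGR1 (0.795%) or GGGNNTTCC of NF-kB (6.58%). GC content was 59.3% in the GDF15 window against a median of 58.7% over all windows. Among the 8546 windows of measured genes, 63.0% held an Sp1 match and 6.82% a TATA match. Absence of a match refers to these letters in this window only.

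The table's column totals were 15146071 to 24111541 counts, with the lowest in COMBO library 3. These are totals over the 8579 genes, whose mean counts ran from 78.67 to 9159, and not the sequencing depth. GDF15 itself had 188 to 1814 counts per library. Levels are given as CPM, the counts scaled to an equal library total, after TMM normalisation over the measured genes. Of 13 markers of the melanocyte lineage 8 were measured. MITF, the lineage transcription factor, was at 173 ± 11.6 CPM in UNTREATED and CDH19, a cadherin of neural crest glia and melanocytes, at 371 ± 62.9, while the pigment cell gene MLANA was low, at 4.19 ± 0.908 (SD, n = 3). The summed level of the 8 ranged over 871 to 926 CPM for UNTREATED libraries, 673 to 699 for SEL201, 607 to 619 for OTX015 and 585 to 635 for COMBO. Much of this sum was CDH19, whose mean was 67.0 CPM in COMBO, a log2 change of -2.47 (edgeR adjusted p = 1.01e-08). The 8 did not fall together: with COMBO 3 were lower and 3 higher, beside 29.6% and 28.3% of all genes. Those higher were S100B (log2 change 0.94, edgeR adjusted p = 3.38e-06), MLANA (0.64, 0.0069) and PAX3 (0.22, 0.0018). Of 17 markers of fibroblasts, epithelia, endothelium and blood cells 6 were measured, none of them at 0, and their sum was 369 to 410 CPM for UNTREATED and 194 to 206 for COMBO libraries. With COMBO 5 of the 6 were lower and 1 higher, where 57.8% of all 8579 genes passed the edgeR test at an adjusted p under 0.05 in either direction. The part of these shifts in the GDF15 result was not tested, and in these bulk samples fewer cells of a kind and less RNA per cell cannot be told apart.

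GDF15 was highest in UNTREATED and lower with each agent, and it was lowest with both. The 3 UNTREATED libraries read 71.1, 75.3 and 80.7 CPM, and the SEL201 libraries 30.1, 28.2 and 30.4 CPM, in the order of their numbers. In OTX015 the values were 19.9, 18.3 and 20.4 CPM, and in COMBO 8.79, 8.69 and 14.0 CPM. No 2 groups overlapped: every UNTREATED library lay above every SEL201 library, these above every OTX015 library, and these above every COMBO library. The group means were 75.7 ± 4.82, 29.6 ± 1.19, 19.5 ± 1.10 and 10.5 ± 3.05 CPM (SD, n = 3), so that SEL201 had 39.0%, OTX015 25.8% and COMBO 13.9% of the UNTREATED level. A steplike order without overlap, downward from UNTREATED through SEL201 and OTX015 to COMBO, was found in 362 of all 8579 genes (4.22%), and the same order upward in 302 (3.52%). Of the 362, 19 had a ratio of UNTREATED to COMBO means at least as large as that of GDF15, which is 1 of the 19.

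**Figure D1:**
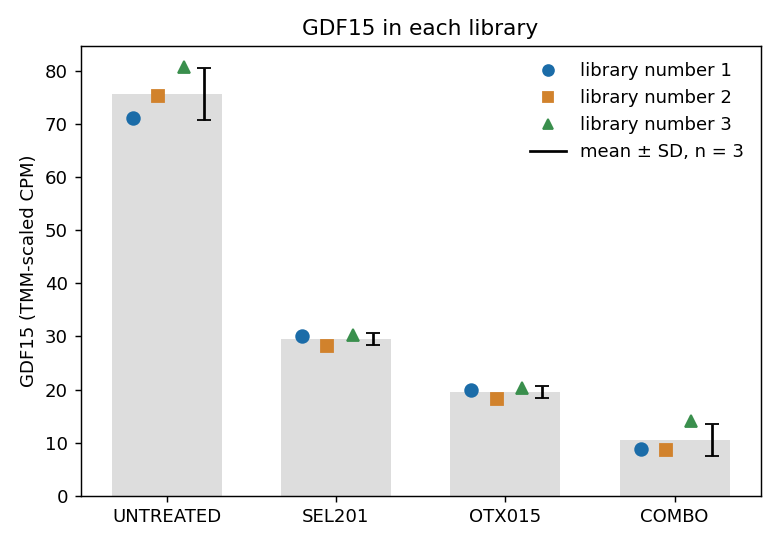
GDF15 level (TMM-scaled CPM, vertical axis) in the 4 groups (horizontal axis); symbols are the 12 libraries by number, grey bars the group means and black bars the SD (n = 3). The UNTREATED libraries lie between 71.1 and 80.7 CPM, and COMBO library 3, at 14.0 CPM, lies above the other two COMBO libraries but below all OTX015 libraries.

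With SEL201 alone, GDF15 was 2.56-fold lower than in UNTREATED, a log2 difference of -1.36 (SE 0.13). It was 3.87-fold lower with OTX015 alone (log2 -1.95, SE 0.13) and 7.32-fold lower with COMBO (log2 -2.87, SE 0.14). These 3 comparisons share the UNTREATED libraries. COMBO was 2.86-fold below SEL201 (log2 -1.51, SE 0.14) and 1.89-fold below OTX015 (log2 -0.92, SE 0.15). On the list of all genes ordered by the log2 difference, GDF15 stood at place 43 from the lowest with SEL201, 59 with OTX015 and 30 with COMBO. The median gene was at 0.00 in each of the 3. COMBO fell short of the sum of both single-agent differences by 0.44 on the log2 scale (SE 0.19).

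The single-agent differences were similar for all 3 library numbers, and those with COMBO were not. Differences were also taken between libraries of the same number, since same-numbered libraries deviated from their group means together. SEL201 against UNTREATED gave log2 -1.24, -1.42 and -1.41 for numbers 1, 2 and 3, and OTX015 against UNTREATED gave -1.83, -2.04 and -1.99. COMBO against UNTREATED gave -3.02, -3.11 and -2.53. The third value, the smallest in size, recurs where COMBO is set against SEL201 (-1.78, -1.70 and -1.11) and against OTX015 (-1.18, -1.07 and -0.54). The shortfall of COMBO from the sum of both agents was 0.06, 0.34 and 0.87 for numbers 1 to 3.

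**Figure D2:**
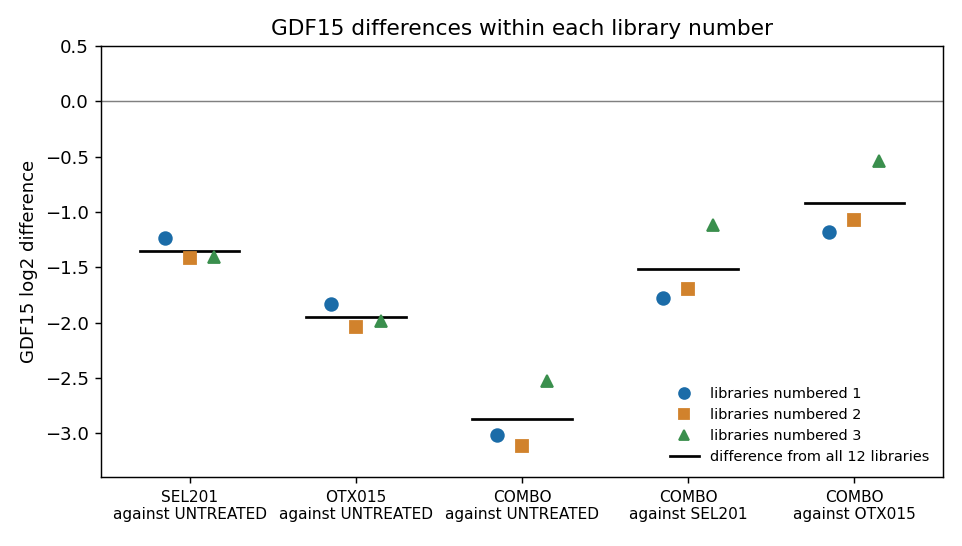
Log2 difference of GDF15 (vertical axis) in 5 comparisons (horizontal axis); symbols compare libraries of the same number, and the black line is the difference from all 12 libraries. All 15 symbols are below 0, and in the 3 comparisons with COMBO the number 3 libraries show the smallest differences (-2.53, -1.11 and -0.54).

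COMBO library 3 stood apart by its level and not by its raw count. The COMBO libraries held 204, 188 and 212 GDF15 counts, but the total of the third was 15146071 against 23247709 and 21658697. Its 95% Poisson interval was 12.2 to 16.0 CPM, clear of 7.62 to 10.1 for library 1 and 7.49 to 10.0 for library 2; such intervals cover counting error only. Genes that fell at least 2-fold with COMBO did not, as a group, fall less in the number 3 libraries. Over these 583 genes other than GDF15, the median log2 ratio of COMBO to UNTREATED was -1.52 for number 1, -1.44 for number 2 and -1.50 for number 3. Without COMBO library 3 the log2 difference of GDF15 was -3.11 against UNTREATED, -1.76 against SEL201 and -1.16 against OTX015, and the shortfall from the sum was 0.20 in place of 0.44. The SD of log2 GDF15 within groups was 0.21 over all groups, above that of 84.6% of genes, for which the median was 0.10; it was 0.06 to 0.09 in the 3 groups other than COMBO and 0.39 in COMBO. Treatment group accounted for 97.4% of the variance of log2 GDF15 over the 12 libraries and number for 1.20%, against medians of 66.5% and 12.3% over all genes.

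On the list of TGF-beta family ligands, of which 10 of 24 others were measured, GDF15 had the steepest course. BMP1 is 1 of the 10 by its name but is not a ligand, and it is kept in the counts and ranks below. Per kilobase of exon, which allows levels of different genes to be compared, GDF15 was the second most abundant of the 11 in UNTREATED (63.1 CPM per kilobase), after BMP2 (99.6) and ahead of BMP8B (56.6). With COMBO it was ninth of 11, at 8.75 CPM per kilobase, next to TGFB3 (9.06), and BMP8B was first (106). By the same measure GDF15 lay above 79.6% of all measured genes in UNTREATED and above 30.1% in COMBO. With COMBO 4 of the 10 other listed genes were higher and 3, with BMP1 among them, lower by the same test, beside 28.3% and 29.6% of all genes. BMP8B, a bone morphogenetic protein, read 279, 255 and 284 CPM in UNTREATED and 511, 479 and 545 in COMBO, with no overlap (log2 change 0.91, SE 0.07, edgeR adjusted p = 1.1e-07). BMP2 changed by -0.49 (edgeR adjusted p = 7.6e-05), TGFB3 by -0.63 (9.99e-05) and BMP1, a protease that processes collagen rather than a growth factor, by -0.36 (3.4e-05). The lowest log2 change of any of the 10 with COMBO was the -0.63 of TGFB3, beside -2.87 for GDF15.

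**Figure D3:**
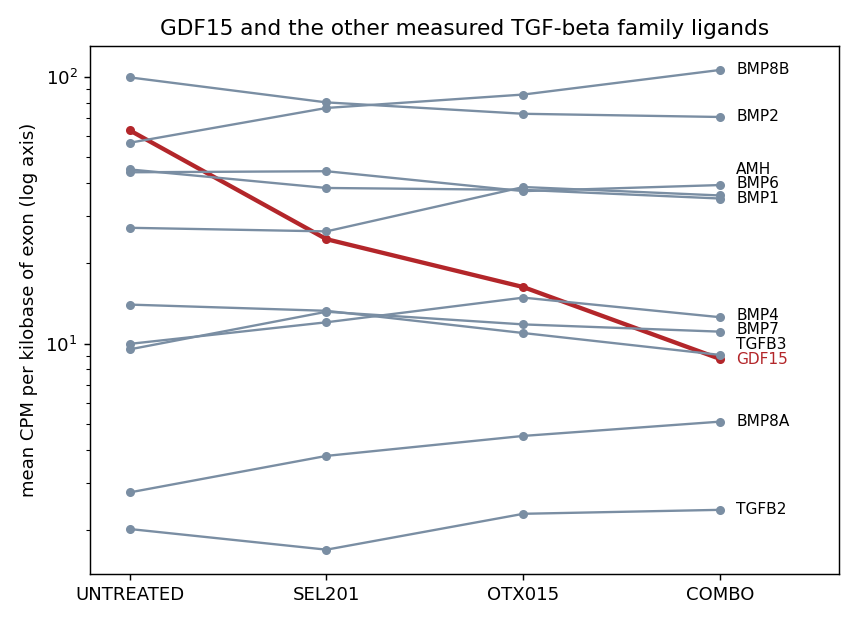
Mean level of GDF15 (red) and the 10 other measured genes of the TGF-beta family ligand list (grey; BMP1 is a protease) in CPM per kilobase of exon (vertical log axis) in the 4 groups (horizontal axis, n = 3 each). GDF15 passes from 63.1 in UNTREATED to 8.75 in COMBO, from second to ninth place, while BMP8B passes from 56.6 to 106.

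Genes of the integrated stress response moved in both directions, and by less than GDF15. Of 16 listed transcription factors and feedback genes, 9 were measured; ATF4, TRIB3 and PPP1R15A were not analysed here. With SEL201 1 of the 9 was higher and none lower, where 21.2% of all genes passed, 10.1% higher and 11.1% lower. With the replicate number as a block in the fit, 3 were higher and 2 lower (37.1% of all genes passed). OTX015 raised 2 and lowered 2 of the 9 (48% of all genes passed), and COMBO raised 3 and lowered 2 (57.8% of all genes passed, 28.3% higher and 29.6% lower). With the block COMBO gave 4 higher and 3 lower (67.7% of all genes passed). The median log2 change of the 9 was -0.02, -0.01 and 0.10 with SEL201, OTX015 and COMBO, next to medians of 0.00 over all genes. Their lowest change with COMBO was -0.95. COMBO against SEL201 gave 1 higher and 2 lower (40.1% of all genes passed), or 2 and 3 with the block (53.4%). COMBO against OTX015 gave 1 higher, SESN2 (6.91%), or 1 higher and 1 lower with the block (22.2%). In the interaction 0 of the 9 passed the edgeR test (0.28% of all genes), 0 had an unadjusted p under 0.05 and 0 passed in DESeq2, while 1 passed with the block (6.75%).

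DDIT3, which encodes CHOP, was at 41.7, 52.1 and 47.5 CPM in UNTREATED and at 56.5, 60.8 and 54.0 CPM in COMBO. The COMBO libraries were all above the UNTREATED libraries, though by little (log2 change 0.28, SE 0.09, edgeR adjusted p = 0.02; 0.099 without UNTREATED replicate 1 and 0.081 without COMBO replicate 2). For DDIT3 edgeR with the block gave an adjusted p of 0.000425. SESN2, a stress-induced sestrin that restrains mTORC1, read 185, 196 and 215 CPM in UNTREATED and 226, 238 and 223 in SEL201. It rose with SEL201 by 0.21 (edgeR adjusted p = 0.0089) and with COMBO, where it was at 247, 248 and 248 CPM, by 0.32 (7.75e-05). ATF3, a transcription factor induced by ATF4, had overlapping groups, from 65.4 to 81.9 CPM in UNTREATED and from 71.2 to 82.0 CPM in COMBO (log2 change 0.10, edgeR adjusted p = 0.36). CHAC1, a glutathione-degrading enzyme and a common reporter of ATF4 activity, stood at -0.07 on the log2 scale in COMBO and did not pass (edgeR adjusted p = 0.79). STC2, the secreted glycoprotein stanniocalcin 2, fell by 0.60 (8.7e-07), and JDP2, a repressor of the AP-1 family, by 0.95 (7.6e-05). The means of both stepped down in the order of GDF15. Pearson's r with GDF15 over the 12 libraries, given as a description, was 0.918 for STC2 and 0.867 for JDP2. It was 0.455 for ATF5 and 0.046 for CHAC1. Negative values were found for ATF3 (-0.247), VLDLR (-0.508), KLHL24 (-0.623), DDIT3 (-0.747) and SESN2 (-0.824).

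Of the amino acid synthesis enzymes that ATF4 controls, 4 of 13 were measured, and 3 of the 4 were lower with OTX015 (48% of all genes passed) and with COMBO (57.8%, with 29.6% lower), whereas with SEL201 (21.2%) 0 passed in edgeR, 0 at an unadjusted p under 0.05 and 0 in DESeq2. The 3 were CBS, cystathionine beta-synthase (log2 change with COMBO -0.84, edgeR adjusted p = 0.00029), ALDH1L2, a mitochondrial folate enzyme (-0.61, 0.00023), and PYCR1 of proline synthesis (-0.58, 6.7e-06; r with GDF15 0.840). The fourth, CTH, stood at -0.16 in COMBO (edgeR adjusted p = 0.31) and passed with the block (0.0135), which gave 4 of 4 lower beside 67.7% of all genes called. The r with GDF15 was 0.740 for ALDH1L2, 0.697 for CBS and 0.139 for CTH. The call of CBS with OTX015 (log2 change -0.49, edgeR adjusted p = 0.0164) was lost without UNTREATED replicate 1 (0.073) or 2 (0.052) or OTX015 replicate 3 (0.072). In the fit of all libraries with the block, the edgeR adjusted p of this change was 1.15e-12. The glycine transporter gene SLC6A9 was the measured one of 10 amino acid transporters and changed by -0.53 with COMBO (edgeR adjusted p = 5.2e-05). ASNS and the 14 listed aminoacyl-tRNA synthetase and tRNA export genes were not analysed here. EIF2AK3, the gene of the eIF2 kinase PERK, rose by 0.23 with COMBO (edgeR adjusted p = 0.0022). Of 21 genes of the endoplasmic reticulum stress response 4 were measured: ERN1, the IRE1 sensor, rose by 0.78 (2e-07), CRELD2 fell by 0.18 (0.009), and SDF2L1 and DNAJB9 had changes of -0.12 (0.097, and 0.0167 with the block) and 0.03 (0.76). OMA1, the protease that relays mitochondrial stress to eIF2 phosphorylation, was 1 of 11 listed mitochondrial stress genes to be measured and fell by 0.46 with COMBO (edgeR adjusted p = 0.000975).

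**Figure D4:**
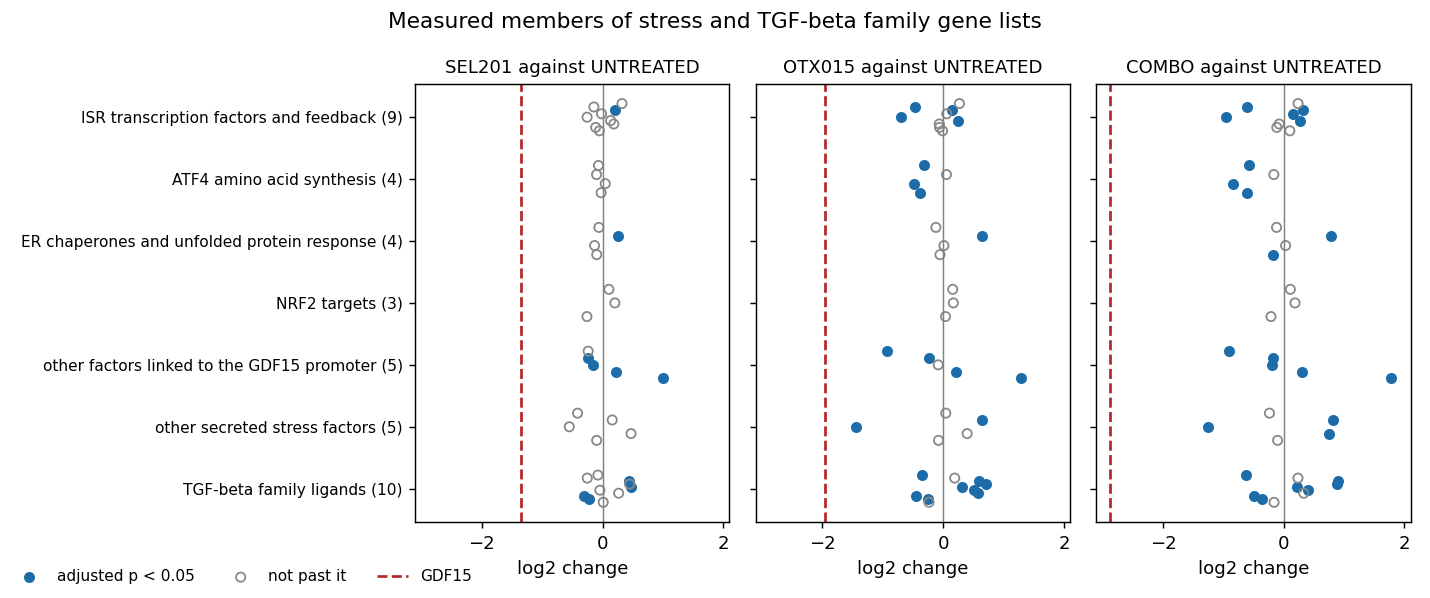
Log2 change (horizontal axis) of each measured member of 7 gene lists (rows, number of measured members in brackets) with SEL201, OTX015 and COMBO against UNTREATED; filled points passed the edgeR test at an adjusted p under 0.05, open points did not, and the red dashed line is GDF15. With COMBO the lowest listed gene is AREG at -1.25, and the GDF15 line is at -2.87.

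Of 14 other factors linked to the GDF15 promoter 5 were measured, and EGR1 showed the clearest change of them, in the direction opposite to GDF15. EGR1, a zinc finger factor of the immediate early response, read 178, 166 and 176 CPM in UNTREATED, 334, 406 and 306 in SEL201, 445, 446 and 374 in OTX015 and 590, 667 and 527 in COMBO. The groups were in the reverse order of GDF15, with SEL201 and OTX015 overlapping in 1 library. EGR1 rose by 1.01 with SEL201 (edgeR adjusted p = 1.6e-05), 1.28 with OTX015 (2.7e-07) and 1.78 with COMBO (5.5e-09). KLF4 rose by 0.31 with COMBO (edgeR adjusted p = 0.00017), whereas KLF6 fell by 0.19 (0.0011) and TFEB, a lysosomal regulator, by 0.90 (0.0032). MITF fell by 0.17 with COMBO (edgeR adjusted p = 0.03), and by 0.24 with each agent alone (0.0144 with SEL201 and 0.00711 with OTX015). The MITF call with COMBO was lost without UNTREATED replicate 2 (0.15) or COMBO replicate 1 (0.058) or 3 (0.089), and the call with SEL201 without UNTREATED replicate 2 (0.074) or SEL201 replicate 1 (0.059) or 3 (0.061). For MITF edgeR with the replicate block gave an adjusted p of 0.00097 with COMBO and 5.8e-05 with SEL201.

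On the side of processing and reception, GFRAL, RET and FURIN were not analysed here, and 3 of 9 listed genes were measured, all proprotein convertases. PCSK5 rose from 33.4, 29.1 and 28.2 CPM in UNTREATED to 56.9, 68.5 and 55.7 CPM in COMBO (log2 change 1.0, SE 0.12, edgeR adjusted p = 7.4e-06). PCSK6 fell by 0.45 (0.027), a call lost without UNTREATED replicate 1 (0.11) or COMBO replicate 1 (0.066) or 2 (0.075). Its adjusted p in edgeR with the replicate block was 0.0075. PCSK1 had a log2 change of -0.78 with COMBO that did not pass (edgeR adjusted p = 0.13). The replicate block gave an adjusted p of 4.6e-05. Of 11 other secreted stress factors 5 were measured. The EGF receptor ligand gene AREG fell by 1.25 with COMBO (edgeR adjusted p = 0.00033), while HBEGF, a ligand of the same receptor, rose by 0.81 (1.05e-06). ANGPTL4, an inhibitor of lipoprotein lipase, rose by 0.76 (0.035), but not in DESeq2 (0.077), without UNTREATED replicate 1 (0.12) or 2 (0.14), or without COMBO replicate 3 (0.15). For ANGPTL4 edgeR with the replicate block gave an adjusted p of 2.88e-12. None of the 3 measured NRF2 targets of 15 (HMOX1, SRXN1 and OSGIN1) passed edgeR in any of the 3 comparisons with UNTREATED, nor did any at an unadjusted p under 0.05 or in DESeq2. With the block 1 was higher and 1 lower with SEL201, 2 higher with OTX015 (59.6% of all genes passed), and 2 higher and 1 (HMOX1) lower with COMBO (67.7% of all genes passed).

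Between library numbers, the number 3 library held the highest GDF15 of its group in all 4 groups, by 0.04 to 0.45 above the group mean on the log2 scale. In a fit of group and number, it was 0.19 higher in number 3 than in number 1 (SE 0.08) and 0.21 higher than in number 2 (SE 0.08), and 18.9% and 18.5% of all genes had larger differences of either sign. Without COMBO library 3 these differences of GDF15 were 0.09 and 0.12. Number 2 against number 1 gave -0.03 (SE 0.08). Stress genes differed between the numbers too, where 10.9% of all genes were higher and 8.92% lower in number 3 than in number 1. All 3 NRF2 targets were higher in number 3, with OSGIN1 at 0.51 (9.7e-11). All 4 amino acid synthesis enzymes were lower, with CBS at -0.44 (1.3e-11). Of the 9 stress response factors and feedback genes 2 were higher, ATF5 at 0.13 (edgeR adjusted p = 0.00832; 0.11 without UNTREATED replicate 3) and STC2 at 0.11 (0.0265), and 2 lower, with CHAC1 the lowest at -0.59 (1.6e-09). What a number stands for is not given in the labels.

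The genes most like GDF15 were found by Pearson's r of log2 CPM over the 12 libraries, given as a description without a test. These 12 points share 4 treatments, so a high r mostly reflects the order of the group means, and 305 of the 8578 other genes had an r over 0.95. The 8 highest were KRT81 (0.994), PTPN22 (0.994), PDE2A (0.992), GAL (0.991), SMOC1 (0.991), TSPAN4 (0.988), ABCC2 (0.988) and KIF1A (0.988). All 8 were lower in every group than in UNTREATED, but by different amounts. With COMBO the log2 change ran from -1.17 for the tetraspanin gene TSPAN4 to -6.16 for the hair keratin gene KRT81. The KRT81 value rests on levels near the floor, 0.26, 0.23 and 1.19 CPM in COMBO libraries 1 to 3. The phosphatase gene PTPN22 had log2 changes of -1.44, -2.09 and -2.81 with SEL201, OTX015 and COMBO, beside -1.36, -1.95 and -2.87 for GDF15. The kinesin gene KIF1A had -1.15, -2.01 and -2.80, and SMOC1, a matrix protein gene, -1.11, -1.91 and -2.79. PTPN22 read 5.77, 5.41 and 8.47 CPM and SMOC1, at low levels, 1.72, 1.66 and 3.18 CPM in COMBO libraries 1 to 3. Within COMBO all 8 genes were highest in library 3, as was GDF15. The pick by r over these same libraries favours such genes, so this is no separate result. The genes with the most opposite profiles were EMC10 (r = -0.991), AAMDC (-0.987), TCAF1 (-0.985) and TUBB2A (-0.985). The beta-tubulin gene TUBB2A had a log2 change of 1.01 with COMBO. That these genes rose where GDF15 fell follows from how they were picked.

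**Figure D5:**
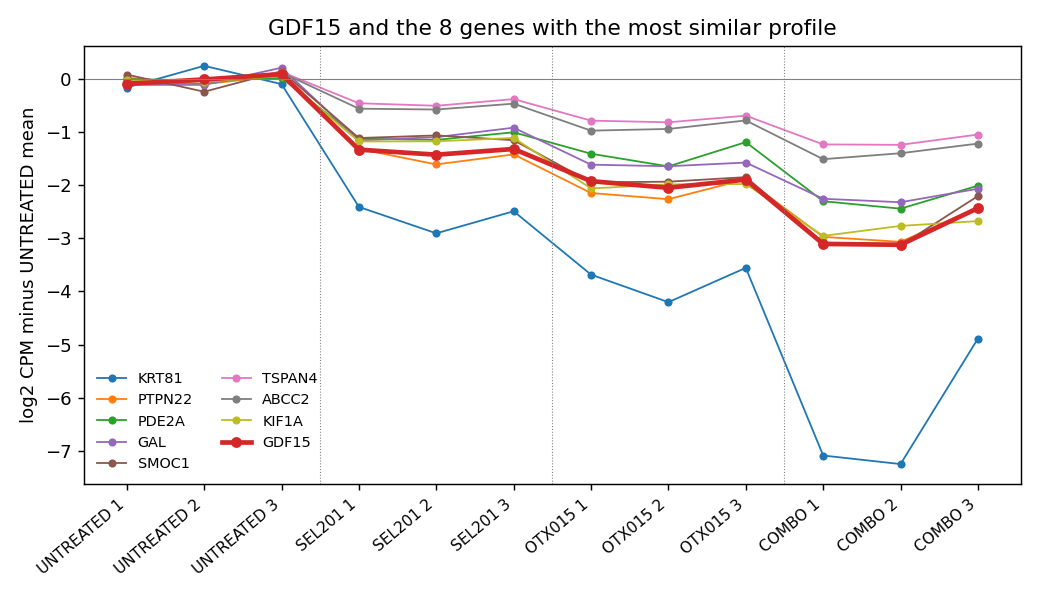
Log2 CPM relative to the UNTREATED mean (vertical axis) in the 12 libraries (horizontal axis, dotted lines between groups) for GDF15 (thick red) and the 8 genes with the highest r. The lines only join points of 1 gene; libraries of a group have no order. PTPN22, SMOC1 and KIF1A run close to GDF15, KRT81 lies far below and TSPAN4 and ABCC2 above.

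With the group means subtracted, r compares deviations within groups. Those of GDF15 were -0.22, -0.24 and 0.45 on the log2 scale in COMBO libraries 1 to 3, and -0.09 to 0.09 in the other groups. This r therefore mostly reflects COMBO library 3 and says little on the other groups. The highest were TGM1 (0.965), KRT81 (0.955), P2RX5 (0.953), KLHL15 (0.95), UVSSA (0.930), GPR157 (0.922), BTNL9 (0.919) and MPV17L (0.913). The lowest were SYT3 (-0.988), CENPS (-0.971), TNFSF13B (-0.947) and ZFP82 (-0.929). That these genes stood apart in COMBO library 3, where GDF15 deviated most, follows from how they were picked. TGM1, a transglutaminase gene, read 6.33, 6.52 and 11.2 CPM in COMBO libraries 1 to 3, and SYT3, a synaptotagmin gene, 4.74, 4.95 and 2.25.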

How the data were processed

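RNA of 12 A375 libraries was measured. Libraries were stranded and poly(A)-selected, with paired reads of 150 bases, per the labels' protocols. The authors deposited raw counts per gene; the tools listed in the submitters' processing notes are STAR 2.5.4b, SAMtools 1.9, FastQC, featureCounts, DESeq2 and Trimmomatic, and the build is hg19. Tool roles, annotation, strand setting and gene filter: not given in the sources used here.

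Counts were fitted with edgeR 4.0.16 in R 4.3.3 (TMM, filterByExpr, glmQLFit, glmQLFTest) over all 12 libraries with group means, and Benjamini-Hochberg adjustment over 8579 genes at 0.05. Number differences came from an additive fit of group and number. SE is the log2 change over the square root of F. Steps were tested on simulated data. Log2 CPM for likeness used a prior count of 2.

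GDF15, the gene lists and the tests were chosen with earlier results of these data known. Named genes were, per list, up to 4 with the lowest p in COMBO against UNTREATED or in number 3 against 1, up to 3 in the interaction for stress response lists, a fixed set of stress regulators, the 8 most and 4 least like GDF15, and 3 measured neighbours on each side. Some items are not reported here.

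Deviations from group means correlated at 0.26 to 0.57 in all 18 same-numbered pairs and at -0.46 to 0.19 in the other 36, so the numbers pair the libraries, from the data and not the labels. Chi-square per degree of freedom within groups was 6.34 or more, so no library was counted as a repeat. Exon lengths came from GENCODE v29 (8499 genes matched). Alternatives were other scalings, filters, DESeq2 1.42.0, the replicate block, fewer groups and left-out libraries.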

Additional observations from a re-analysis of the deposited data

Results flagged for a closer look

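Among the genes named, 1 had a SEL201 effect that differed with and without OTX015 by the interaction test in the fit without the replicate block. KRT8, a simple-epithelium keratin gene on the list of other cells' markers, had log2 changes of -0.69 with SEL201, -0.83 with OTX015 and -1.02 with COMBO. The COMBO change was smaller in size than the sum of both single-agent changes by 0.49 (SE 0.07); the edgeR adjusted p was 0.011, and 0.05 without UNTREATED replicate 2. Of all 8579 genes, 24 (0.28%) passed this test. With the replicate block 579 (6.75%) passed, and more of the named genes were among them. Examples are CDH19 at 0.78 (edgeR adjusted p = 1.51e-09), CBS at -0.41 (2.82e-06) and EGR1 at -0.50 (3.08e-05). Of the 4 measured amino acid synthesis enzymes 3 passed with the block, all with negative values.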

How the results depend on the processing

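GDF15 kept the sign of its difference in all 6 group comparisons under every alternative run. Without the 4 number 3 libraries its log2 difference was -1.74 for COMBO against SEL201, -1.13 for COMBO against OTX015 and 0.20 for the interaction. Leaving out 1 library at a time gave -1.40 to -1.31 for SEL201, -2.00 to -1.90 for OTX015 and -3.11 to -2.75 for COMBO against UNTREATED, -1.76 to -1.40 for COMBO against SEL201, -1.16 to -0.80 against OTX015, and 0.20 to 0.56 for the interaction. Between numbers the range was -0.09 to 0.02 for 2 against 1, 0.09 to 0.24 for 3 against 1 and 0.12 to 0.27 for 3 against 2.

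Calls over all genes with SEL201 went from 1820 to 3180 with the replicate block, those of COMBO against OTX015 from 593 to 1908, and those of the interaction from 24 to 579, or 119 in DESeq2 and 72 without the number 3 libraries; the cause was not tested. Leaving out 1 library gave 1346 to 1894 calls for SEL201, 3609 to 4192 for OTX015, 4523 to 4989 for COMBO, 2866 to 3503 and 304 to 647 for COMBO against SEL201 and OTX015, and 4 to 23 for the interaction, with 278 to 717, 1232 to 1769 and 1835 to 2311 for numbers 2 against 1, 3 against 1 and 3 against 2. The lowest were without OTX015 replicate 2 (304 and 278) and UNTREATED replicate 2 (4).

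Of the 9 stress response factors and feedback genes, 1 passed with SEL201 (5 with the block, 2 in the compared groups alone and 2 without number 3), 4 with OTX015 (2 with at least 200 counts in every group mean and 2 in the compared groups alone), 3 for COMBO against SEL201 (5 with the block), 1 for COMBO against OTX015 (0 on column totals, 2 with the block, 0 without number 3) and 0 for the interaction (1 with the block). Leaving out 1 library gave 1 to 2, 2 to 4, 4 to 5 (COMBO against UNTREATED), 2 to 4, 0 to 1 and 0. The fit of only the compared groups was not run for the interaction, which needs all 4. Of the 8 genes most like GDF15, all 8 were also the top 8 on column totals. By Spearman's rho, where ties are many, 16 genes were tied with the eighth place or above it. PDE2A and TSPAN4 were the 2 of the 8 among these 16.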

Other observations

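The measured neighbours of GDF15 differed in direction. PGPEP1, the nearest measured gene before it on chromosome 19 in the RefSeq order, had log2 changes of 0.06, 0.06 and 0.15 with SEL201, OTX015 and COMBO, and none of these passed (edgeR adjusted p = 0.6, 0.52 and 0.078; 0.0067 for COMBO with the replicate block). After it, ISYNA1, the gene of inositol phosphate synthase, rose by 0.27, 0.45 and 0.47 (edgeR adjusted p = 0.00146, 5.1e-06 and 1.55e-06), and ELL, an elongation factor gene, did not pass with COMBO (0.03, edgeR adjusted p = 0.55). Farther off, IQCN had means of 8.57, 6.68, 3.74 and 2.91 CPM in UNTREATED, SEL201, OTX015 and COMBO, the same downward order as GDF15, and fell by 1.57 with COMBO (edgeR adjusted p = 9.2e-05). RAB3A, a vesicle GTPase gene, rose by 0.67 (4.4e-06).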
